A study of Mus musculus with 9 samples.

Results

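The KANK genes encode 4 scaffold proteins, and the study's arrays carried 8 probe sets for them. The members were chosen by gene symbol in the platform annotation, which gave Kank1 (Entrez 107351, 2 probe sets), Kank2 (235041, 2 probe sets), Kank3 (80880, 3 probe sets) and Kank4 (242553, 1 probe set), 4 genes of the 18193 that the arrays name. The genes lie on mouse chromosomes 19, 9, 17 and 4. The rise of Kank3 over the controls is what drew attention to the family, so that rise is described here with no test. Kank1, Kank2 and Kank4 came in by name and were tested in every comparison.

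Transcripts were measured on 9 Affymetrix arrays of NIH-CAR cells, 1 clonal line of mouse NIH-3T3 fibroblasts that stably carries the receptor by which adenovirus enters (CARΔ1), at passage 12. Control cells were transduced with the insert-free virus AdEmpty and then given the vehicle DMSO. The other groups were transduced with virus for HA-tagged full-length PPARg2 (PPARγ2), the nuclear receptor that drives fat cell formation, or for HA-PPARgCDE, which lacks the N-terminal A/B-domain, and then given 1 µM of the agonist rosiglitazone. Virus was left on for 2 h, and each group has 3 arrays, numbered 1 to 3. Both receptor groups differ from the controls in receptor and agonist at once, so those cannot be told apart. The comparison of the receptor groups addresses which genes depend on the A/B-domain. The receptor came from a virus in a fibroblast line. The arrays measured bulk RNA, in which fewer cells of a type and less RNA per cell cannot be told apart.

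KANK proteins sit at the rim of focal adhesions, the sites where integrins tie the cell to its matrix. Their N-terminal KN motif binds talin, a coiled coil binds liprin-β1, and ankyrin repeats at the C-terminus bind the kinesin KIF21A. Through these contacts they gather a cortical platform that anchors microtubule ends beside the adhesion and restrain contraction. KANK1 was first described as a candidate tumour suppressor of the kidney, KANK2 is widely made in mesenchymal cells and can hold the coactivator SRC-1 in the cytoplasm, KANK3 is known from blood vessel endothelium and KANK4 from kidney podocytes.

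The stretch in front of the RefSeq start site of Kank3 is shown because Kank3 is the member whose transcript was high in both receptor groups. It covers 250 bases of the GRCm38.p6 build, chr17:33810273-33810522 on the plus strand, with GC boxes (GGGCGG) and a CCAAT box in capitals on whichever strand they were found.
Kank3: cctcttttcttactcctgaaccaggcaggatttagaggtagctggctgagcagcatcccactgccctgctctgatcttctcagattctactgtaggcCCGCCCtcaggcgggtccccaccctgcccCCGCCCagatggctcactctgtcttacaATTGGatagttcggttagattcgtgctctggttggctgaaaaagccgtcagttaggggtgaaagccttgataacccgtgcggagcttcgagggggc
A PPAR with its RXR partner binds direct repeats of the unit AGGTCA spaced by 1 base. The repeat AGGTCANAGGTCA, searched on both strands, was found in 0 of the 4 KANK windows and in 0.0335% of all 32851 windows of the same length in the RefSeq table. The single unit AGGTCA, which the repeat contains, was also in 0 of the 4 and in 14.0% of all windows. No match says only that these letters are not in these windows. GC boxes numbered 3 in front of Kank1, 2 for Kank2, 2 for Kank3 and 0 for Kank4, and 32.7% of all windows hold at least 1. The Kank3 window also has 1 CCAAT match, a motif in 33.8% of windows, and TATAAA was in 0 of the 4 and in 12.4% of all. With 56.4% G and C, the Kank3 window lay below those of Kank1 (67.6%), Kank2 (74.0%) and Kank4 (74.8%), and the median of all windows was 52.4%.

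Values below are log2 as deposited. A level is given per array or as mean ± SD over 3 arrays, and a difference with its standard error (SE). Adjusted p-values are from limma with Benjamini-Hochberg adjustment over the 34945 probe sets that name 1 gene, and a probe set was called at an adjusted p under 0.05. Nothing in the labels says that the arrays of a group are separate cultures beyond the mention of individual experiments, so p-values measure the spread between these arrays. Levels of different probe sets are not set against each other, since each has its own brightness.

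The labels and the tissue were checked first. Arrays 1, 2 and 3 gave Pparg levels of 7.01, 6.99 and 7.17 for empty vector, then 10.70, 12.22 and 10.84 for the full-length receptor and 10.74, 12.01 and 11.26 for its deleted form, so both receptor groups stood above the controls and array 2 was the highest in each. Fibroblast markers were present, with vimentin (Vim) at 14.08 ± 0.14 and the collagen gene Col1a1 at 13.49 ± 0.13 with empty vector, and 0 of 10 were called in each of the 3 comparisons. Over all genes 0.605% were called for the full-length and 0.154% for the deleted receptor against empty vector. Between the receptors it was 0%, so 0 of 10 is near the background. The arrays numbered 3 stood apart in every group. Their scores on the first principal component, which held 37.9% of the variance, ran from 26.4 to 62.3 against -30.5 to 5.11 on the other 6 arrays. The mean of the 3 control probe sets for 18S ribosomal RNA was 7.59 to 8.67 on those 3 arrays and 10.51 to 12.44 elsewhere. Their part in the results below was not tested, and the values without these 3 arrays are given beside the Kank results.

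Kank3 was the member with the large difference. Its brightest probe set, 1448839_at, read 6.23, 5.76 and 6.39 on empty-vector arrays 1, 2 and 3. Cells with full-length receptor gave 9.42, 9.06 and 10.51, and cells with its deleted form gave 8.79, 8.59 and 9.60. Every array of both receptor groups lay above every empty-vector array, while the receptor groups overlapped each other. The mean went from 6.13 ± 0.33 (SD, n = 3) to 9.66 ± 0.76 and 8.99 ± 0.53, which is 3.54 (SE 0.38) and 2.87 (SE 0.38) above empty vector, or 11.6-fold and 7.30-fold on this scale. The empty-vector levels lie under the lowest array median of 6.68 and have no detection call, so the folds are ratios of signals and not against a control level shown to be above background. Ranked by difference among the 34945 probe sets, this one was at place 8 from the top in each of the comparisons with empty vector, which share their control arrays.

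The probe set 1456629_at gave the same picture at a smaller size. Its levels were 5.58, 5.72 and 5.91 with empty vector, 8.12, 7.70 and 8.80 for full-length receptor and 7.54, 7.34 and 8.33 for its deleted form. Again the receptor groups stood wholly above the controls and overlapped each other. The differences from empty vector were 2.47 (SE 0.31) and 2.00 (SE 0.31), at places 19 and 22 from the top. The 1440114_x_at probe set, whose suffix in Affymetrix naming marks probes that can match other sequences, read 6.33, 6.40 and 6.07, then 6.52, 6.57 and 7.04, then 6.51, 6.50 and 6.62. Its groups were separated from empty vector too, but by 0.44 (SE 0.16) and 0.28 (SE 0.16). The size of the Kank3 difference therefore depends on the probe set, from 0.44 to 3.54 for the full-length receptor and from 0.28 to 2.87 for the deleted receptor.

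**Figure D1:**
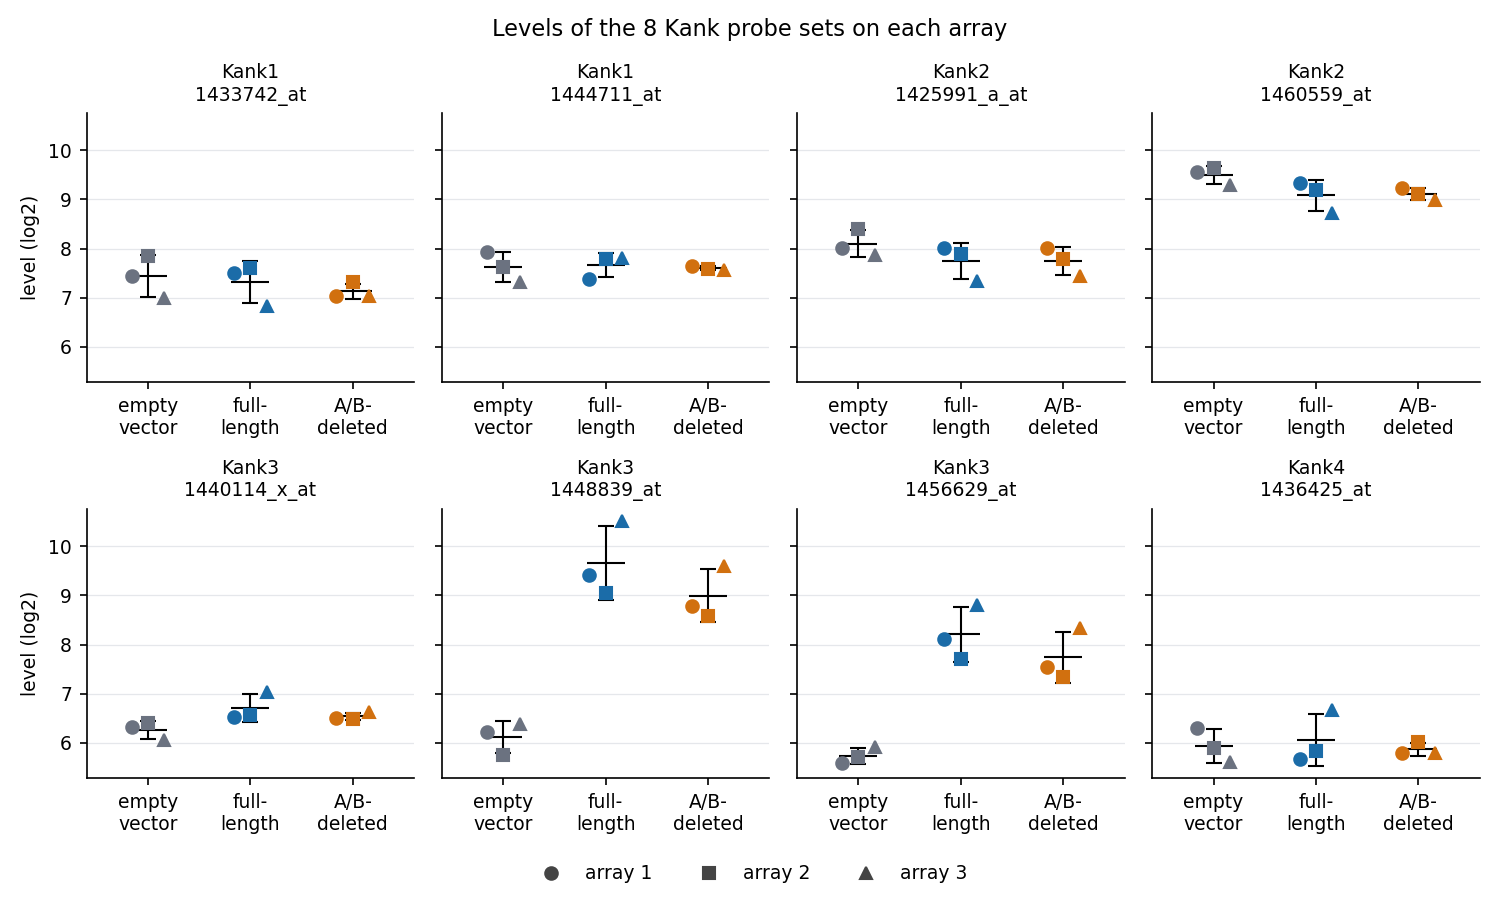
Level (log2) of each Kank probe set by group, with 1 point per array (circle, square and triangle for arrays 1, 2 and 3), a bar at the mean and whiskers of 1 SD (n = 3). The Kank3 probe sets 1448839_at and 1456629_at stand higher in both receptor groups, at 8.59 to 10.51 and 7.34 to 8.80, than with empty vector, at 5.76 to 6.39 and 5.58 to 5.91.

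Without the arrays numbered 3 the Kank3 differences from empty vector were smaller at all 3 probe sets. For 1448839_at they became 3.24 (SE 0.20) with the full-length and 2.70 (SE 0.20) with the deleted receptor, and for 1456629_at 2.26 (SE 0.17) and 1.79 (SE 0.17). The difference of 1440114_x_at became 0.18 (SE 0.11) and 0.14 (SE 0.11), a move of more than 1.5 times. When 1 array at a time was left out, 1448839_at ranged from 3.11 to 3.84 and from 2.56 to 3.07, 1456629_at from 2.17 to 2.72 and from 1.70 to 2.20, and 1440114_x_at from 0.28 to 0.54 and from 0.18 to 0.34.

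Within each receptor group Kank3 did not have its highest value where Pparg did. Array 3 held the highest Kank3 level in both receptor groups for all 3 probe sets, and for 1448839_at it lay 1.27 above the mean of arrays 1 and 2 with the full-length receptor and 0.91 above it with the deleted receptor. Array 2, with the highest Pparg, held the lowest Kank3 level of 1448839_at and 1456629_at in both receptor groups. With empty vector, array 3 was likewise highest for these 2 probe sets, by 0.40 and 0.26. Plin2, a lipid droplet coat gene and the one most correlated with Kank3 over the 9 arrays, was also highest on array 3 in each group, at 10.75 with empty vector, 13.87 with the full-length and 13.72 with the deleted receptor. Fabp4, a fatty acid binding protein gene that PPARγ induces, was instead lowest on array 3 in each group, at 5.39, 13.13 and 11.04.

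**Figure D2:**
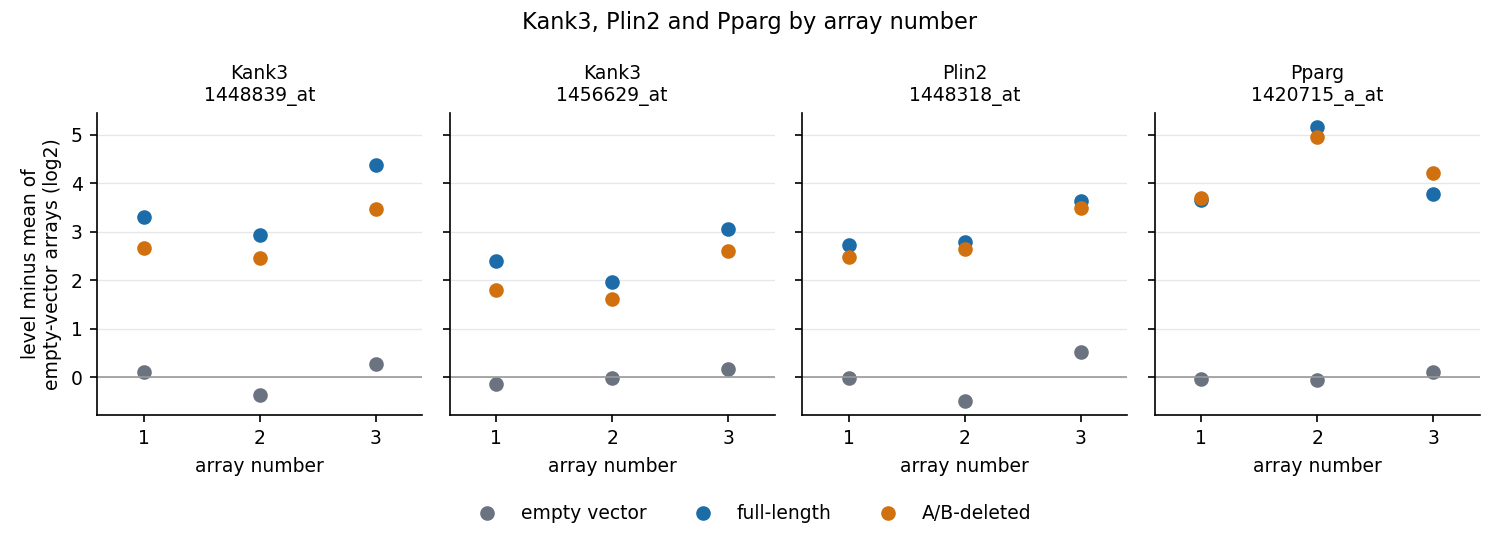
Level of 2 Kank3 probe sets, Plin2 and Pparg minus the mean of the empty-vector arrays (log2), by array number and group. Kank3 and Plin2 are highest on array 3 of each receptor group, where Kank3 1448839_at lies 4.38 and 3.47 above the controls' mean, and Pparg is highest on array 2, at 5.16 and 4.95.

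Whether the A/B-domain matters for Kank3 is read from the comparison of the receptor groups, which uses the receptor arrays on which the gene was noticed but not the control arrays. The deleted receptor gave 0.67 less than the full-length receptor at 1448839_at (difference -0.67, SE 0.38, 95% interval from -1.52 to 0.19, limma adjusted p = 1). At 1456629_at the difference was -0.47 (SE 0.31, 95% interval from -1.16 to 0.22) and at 1440114_x_at -0.17 (SE 0.16, 95% interval from -0.52 to 0.19), each with a limma adjusted p of 1. No probe set of any gene was called here, 0% of those tested, and only 1.91%, or 667, had an unadjusted p under 0.05 by limma. The fit with the replicate number as a block and the fit with trend and robust settings also called 0. The interval reaches down to -1.52 at the brightest probe set, so equal levels are not shown.

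Same-numbered arrays of the receptor groups deviated together, and taken as pairs each gave a lower Kank3 with the deleted receptor. At 1448839_at arrays 1, 2 and 3 differed by -0.63, -0.47 and -0.91, and at 1456629_at by -0.58, -0.36 and -0.46. All 3 pairs were thus lower at both probe sets, and also at 1440114_x_at, by -0.01, -0.07 and -0.42. The 3 probe sets read 1 gene on the same arrays, so they are not separate support. How many of all probe sets were lower in 3 of 3 was not counted. With the replicate number as a block the difference at 1448839_at had an SE of 0.18 and an adjusted p of 0.919 (limma), and without the arrays numbered 3 it was -0.55 (SE 0.20). The log2 difference from empty vector with the deleted receptor came to 81.1% of that with the full-length receptor at both 1448839_at and 1456629_at and 62.3% at 1440114_x_at, a ratio that shares the control arrays and is given as a description. Pparg itself differed between the receptor groups by 0.09 (SE 0.41).

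**Figure D3:**
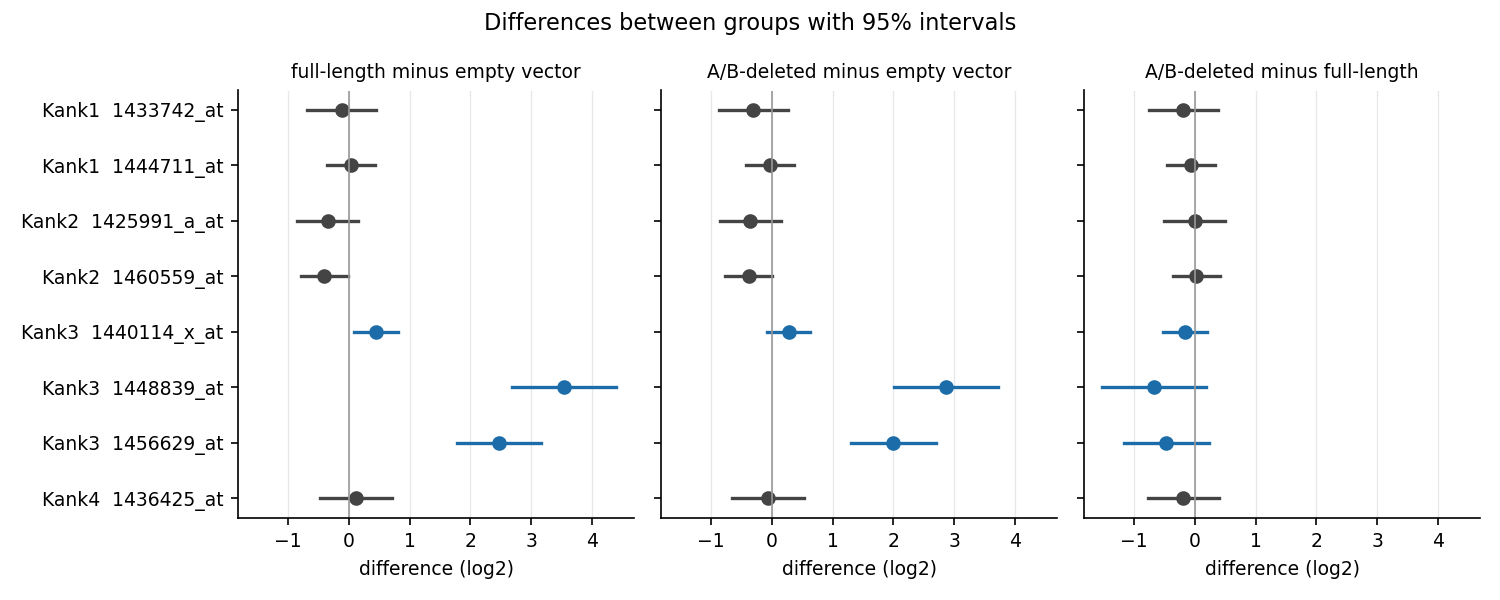
Difference between groups (log2, points) with its 95% interval (lines) for each Kank probe set in the 3 comparisons, with Kank3 in blue. The Kank3 intervals against empty vector describe spread and are no test, since that rise drew attention to the family. The Kank3 points lie at 3.54, 2.47 and 0.44 and at 2.87, 2.00 and 0.28 against empty vector, and the intervals of all 8 probe sets include 0 between the receptors.

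Kank2, which encodes the scaffold described in mesenchymal cells, was lower in both receptor groups in the mean, and no difference was called. Its brighter probe set 1460559_at read 9.55, 9.63 and 9.28 with empty vector, 9.34, 9.19 and 8.73 for full-length receptor and 9.23, 9.11 and 8.99 for its deleted form. The deleted-receptor arrays lay below every control array, and the full-length arrays overlapped the controls through array 1. The differences were -0.40 (SE 0.17, limma adjusted p = 0.777) and -0.38 (SE 0.17, limma adjusted p = 1), and the receptors differed by 0.02 (95% interval from -0.36 to 0.41).

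The other Kank2 probe set, 1425991_a_at, read 8.02, 8.40 and 7.87, then 8.01, 7.90 and 7.34, then 8.0, 7.79 and 7.44, with overlap between all groups. Its differences were -0.35 (SE 0.22) and -0.35 (SE 0.22), each with a limma adjusted p of 1. Between the receptors it differed by -0.0033 (95% interval from -0.50 to 0.50). These 3 differences were -0.26, -0.31 and -0.055 (SE 0.16) without the arrays numbered 3, and 0 were called. By array number Kank2 was lower than empty vector in 3 of 3 with the deleted receptor at both probe sets. The differences were -0.32, -0.53 and -0.29 at 1460559_at and -0.017, -0.61 and -0.44 at 1425991_a_at. How many of all probe sets were lower in 3 of 3 was not counted. With the replicate block 1460559_at had adjusted p = 0.279 (limma) for the deleted receptor. In all 3 groups array 3 gave the lowest Kank2 level at both probe sets. Without the arrays numbered 3 the differences of 1460559_at were -0.33 (SE 0.12) and -0.43 (SE 0.12), again not called (limma adjusted p = 0.336 and 0.35).

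Kank1 showed no called difference, and its probe sets differed in sign for the full-length receptor against empty vector. The probe set 1433742_at read 7.44, 7.86 and 7.00 with empty vector, 7.51, 7.61 and 6.83 for full-length receptor and 7.04, 7.31 and 7.03 for its deleted form. It differed from empty vector by -0.12 (SE 0.25) and -0.31 (SE 0.25). The 1444711_at probe set read 7.93, 7.64 and 7.31, then 7.39, 7.79 and 7.82, then 7.64, 7.58 and 7.57, and differed by 0.04 (SE 0.18) and -0.03 (SE 0.18). All groups overlapped at both. Between the receptors Kank1 differed by -0.19 (95% interval from -0.76 to 0.38) and -0.07 (95% interval from -0.47 to 0.32), and limma's adjusted p was 1 for each of the 6 Kank1 comparisons. Without the arrays numbered 3, 1433742_at differed by -0.088, -0.47 and -0.38 (SE 0.17) for full-length and deleted receptor against empty vector and between the receptors. In the same order 1444711_at differed by -0.19, -0.17 and 0.020 (SE 0.17), and 0 of these were called.

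Kank4 has 1 probe set, 1436425_at, which read 6.31, 5.90 and 5.61 with empty vector, 5.68, 5.84 and 6.67 for full-length receptor and 5.79, 6.03 and 5.79 for its deleted form. All 9 values lay under the lowest array median of 6.68, and the file gives no detection calls, so whether Kank4 was expressed cannot be read from them. The differences were 0.12 (SE 0.26) and -0.07 (SE 0.26) from empty vector and -0.19 (95% interval from -0.78 to 0.40) between the receptors, each with a limma adjusted p of 1. These became -0.35, -0.20 and 0.15 (SE 0.17) without the arrays numbered 3, again not called, so the signs of the first and the third turned.

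Counted together, 0 of the 5 probe sets of Kank1, Kank2 and Kank4 were called in any of the 3 comparisons. Among all tested probe sets 0.527% were called between the full-length receptor and empty vector and 0.114% between the deleted receptor and empty vector, so 0 of 5 is near the background. With the replicate block, 195 in place of 40 probe sets were called for the deleted receptor against empty vector, 0 of them from these genes. By limma's unadjusted p, 1 of the 5 was under 0.05 for the full-length receptor, which was Kank2 1460559_at, and 0 of 5 in the other comparisons. Over all probe sets the shares under 0.05 were 6.06% for the full-length receptor, 3.71% for the deleted receptor and 1.91% between the receptors.

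The genes of KANK partners were taken from 4 lists, each gene by its brightest probe set. The cortical platform list holds talins, liprins, LL5 proteins, ELKS, CLASPs, the KIF21 kinesins and Macf1. Of its 12 genes 0 were called in each comparison, near the shares over all genes of 0.605% and 0.154% against empty vector and 0% between the receptors. The median was -0.13 for the full-length and -0.10 for the deleted receptor against empty vector, where the medians over all 18193 genes were 0.0032 and -0.03. The platform genes with the smallest p for the full-length receptor were Kif21a, the kinesin that KANK ankyrin repeats bind (-0.48, SE 0.14), Erc1, which encodes ELKS (-0.31, SE 0.12), and Clasp1, which encodes a microtubule plus-end protein (-0.25, SE 0.10). Their limma adjusted p-values were 0.362, 0.682 and 0.734. Kif21a probe sets ran from -0.62 to 0.12.

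Other binding partners of single KANK proteins, 17 genes, held the 1 call among all 4 lists. Baiap2, which encodes the membrane-bending adaptor IRSp53 that KANK1 binds, read 8.34, 8.26 and 8.44 with empty vector, 8.98, 9.24 and 9.16 for full-length receptor and 8.62, 8.91 and 8.64 for its deleted form. The 3 groups did not overlap, with the deleted receptor between the others. The rise with the full-length receptor was 0.78 (SE 0.13, limma adjusted p = 0.033), in a comparison where 0.605% of genes' brightest probe sets were called. With the deleted receptor the difference from empty vector was 0.38 (SE 0.13, adjusted p = 1), in a comparison where 0.154% were called, and between the receptors it was -0.40 (SE 0.13, adjusted p = 1), both by limma.

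The Baiap2 call was fragile. Its 4 probe sets ran from 0.01 to 0.78, and the call was lost without any 1 of the 3 empty-vector arrays, the 3 full-length arrays or deleted-receptor arrays 1 and 3, with limma adjusted p up to 0.183 and differences from 0.72 to 0.85. It was also lost after subtraction of array medians (0.75, adjusted p = 0.0885), with the mean of its probe sets (0.39, adjusted p = 0.231), with the 6 compared arrays alone (adjusted p = 0.0998) and without the arrays numbered 3 (0.81, adjusted p = 0.0808). Among the other partners Daam1, which encodes a formin, was at -0.47 (SE 0.15, limma adjusted p = 0.458). Ncoa1, which encodes the coactivator SRC-1, was at 0.64 (SE 0.30, limma adjusted p = 0.883). The median of these 17 genes was -0.04 for each receptor against empty vector.

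Focal adhesion genes were called 0 times of 13 measured in each comparison. That is near the shares over all genes, 0.605% and 0.154% against empty vector and 0% between the receptors. The lowest was Zyx, which encodes the force-sensitive adhesion protein zyxin, at -0.98 (SE 0.19, limma adjusted p = 0.0729) with the full-length receptor and -0.82 (SE 0.19, limma adjusted p = 0.369) with the deleted receptor, where the replicate block gave adjusted p = 0.0334. For the full-length receptor Zyx was called in other limma fits, with adjusted p = 0.0416 after a filter on low values and 0.0409 with trend and robust settings. A further Zyx probe set, 1438552_x_at, was at -1.07 (SE 0.33) and -0.74 (SE 0.33). Tns1, which encodes tensin at adhesions to fibrillar matrix, was at 1.10 (SE 0.31, limma adjusted p = 0.317), and all 3 of its probe sets were above 0, from 0.77 to 1.10. Without the arrays numbered 3, Tns1 was at 1.38 (limma adjusted p = 0.00696). Bcar1, which encodes the adaptor p130Cas, was at 0.39 (SE 0.15, limma adjusted p = 0.617). The list medians were -0.11 and 0.025 against empty vector.

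Genes of actin and its contraction were called 0 times of 10 measured in each comparison, with medians of -0.13 and -0.10. Those counts are near the shares over all genes, 0.605% and 0.154% against empty vector and 0% between the receptors. The genes with the smallest p for the full-length receptor were the formin gene Diaph1 (-0.24, SE 0.10), the myosin phosphatase subunit gene Ppp1r12a (-0.21, SE 0.15) and the cytoplasmic actin gene Actg1 (-0.12, SE 0.10). Their limma adjusted p-values were 0.751, 1 and 1. Between the receptors the medians of the 4 lists lay between -0.035 and 0.06, and 0 genes of any list were called.

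**Figure D4:**
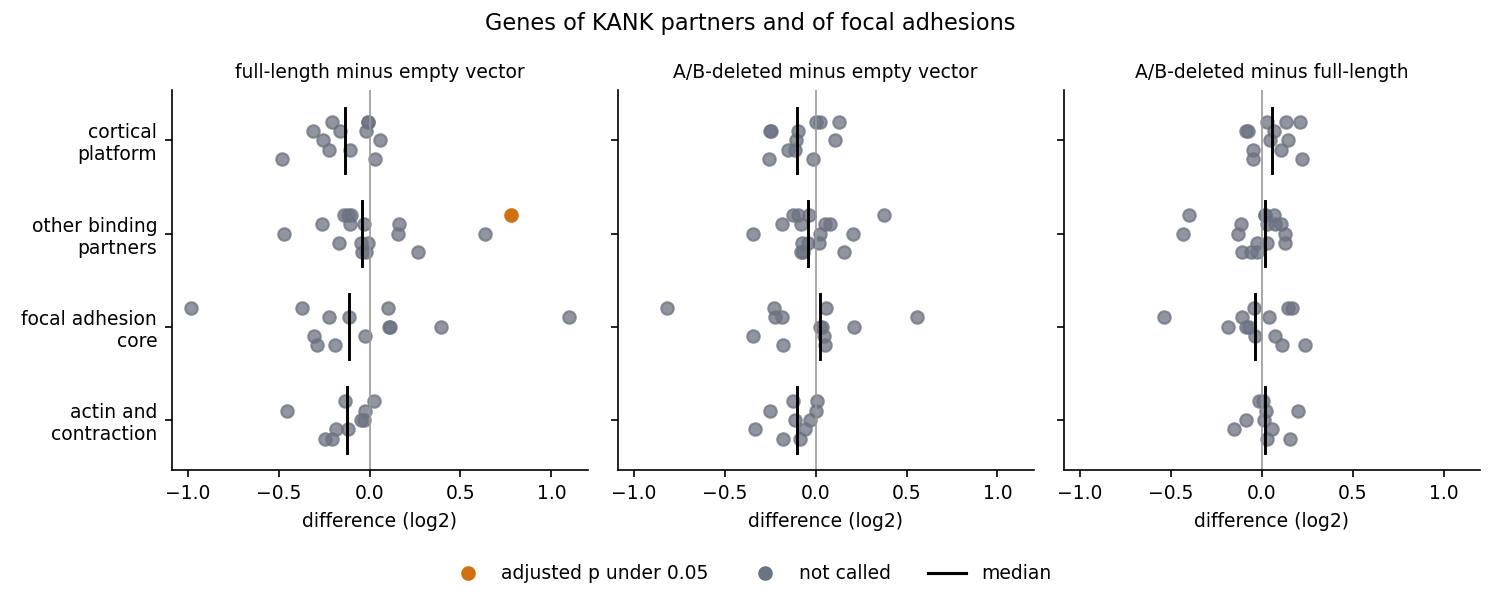
Difference (log2) of each partner or adhesion gene, by list and comparison, with 1 point per gene (orange where the limma adjusted p was under 0.05) and a black bar at the list's median. Baiap2 at 0.78 is the single called point, and the medians lie between -0.13 and 0.06.

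Markers of the cell types in which KANK3 and KANK4 are best known were read beside them. Over all genes 0.605% were called for the full-length and 0.154% for the deleted receptor against empty vector. Between the receptors it was 0%, so counts of 0 below are near the background. For 10 endothelial genes the log2 of the summed signal ran from 9.77 to 10.17 for empty vector, from 9.885 to 10.02 for full-length receptor and from 9.88 to 9.97 for its deleted form, and 0 were called in each comparison. Egfl7 weighed most in that sum, with means of 8.83, 8.70 and 8.71, followed by Esam with 7.105, 7.11 and 7.07. The sum is therefore no measure of a broad endothelial signal. Pecam1 read 6.11 ± 0.38, 6.26 ± 0.39 and 5.94 ± 0.16 in the 3 groups and the junction gene Cdh5 5.66 ± 0.19, 5.66 ± 0.20 and 5.60 ± 0.18, with overlap between all groups. Of 5 podocyte genes 0 were called, with summed levels of 9.22 to 9.90, 9.57 to 10.21 and 9.77 to 10.29. Synpo weighed most in that sum, with means of 8.71, 9.26 and 9.49. Of 6 adipocyte genes Fabp4 and Cidec were called with the full-length receptor and Fabp4 with the deleted receptor, and the summed level went from 8.40 to 9.10 with empty vector to 13.22 to 13.70 and 11.26 to 13.22. Fabp4 carried that sum, with means of 5.82, 13.42 and 12.36. The 4 uncalled genes, Adipoq, Retn, Lep and Lipe, differed from empty vector by -0.21 to 0.25 with the full-length and -0.09 to 0.03 with the deleted receptor, and the list medians were 0.23 and 0.01.

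Genes whose pattern over the 9 arrays was most like that of a member were found by Pearson correlation of brightest probe sets among 10398 genes at or above the median level. The points share 3 groups, the control arrays and the offset of the arrays numbered 3, so the values are descriptions. For Kank3 they were Plin2 (r = 0.985), Spin4 (0.979), Hccs (0.976), Noc3l (0.9725) and Hif1a (0.968), which differed from empty vector by 3.04, 1.59, 1.29, 0.78 and 0.81 with the full-length receptor. By Spearman correlation the 5 leading genes were Angptl4, Specc1, Me1, Pcsk4 and Zfp326, so 0 of 5 were shared. For Kank2 the leading genes were Rnf34 (0.982), Msantd4 (0.972) and Snap23 (0.969), for Kank1 C920021L13Rik (0.987), B9d1os (0.975) and Shld2 (0.969), and for Kank4 Caly (0.9935), 4833439F03Rik (0.984) and Jsrp1 (0.970). By Spearman correlation 1 of 3 leading genes was shared for Kank2, 0 of 3 for Kank1 and 1 of 3 for Kank4. No group difference was called for these 3 members.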

How the data were processed

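Total RNA was primed with oligo(dT), labelled with biotin and hybridised to Affymetrix arrays, per the labels' protocols. The deposited values are log2 expression of 45101 probe sets, for which the submitters' processing notes name RMA, the package affy and R 2.5.0 as the authors' tools. The base was read from the values, since 2 to the power of at least 99.858% of each array's values was a whole multiple of 0.01 (tolerance 0.01 of that unit). Array medians ran from 6.68 to 6.90, so the arrays do not share 1 distribution. With these medians and the whole hundredths, it is unclear whether the values are the direct output of the named RMA.

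Values were used as deposited. Groups and array numbers came from the sample titles. The fit used the 34945 probe sets that name 1 gene. It left out 64 controls, 9160 that the annotation does not name and 932 that name more than 1. All 4 members kept their symbol in the RefSeq table of GRCm38.p6. The 9 arrays were fitted with limma 3.58.1 (R 4.3.3, lmFit, contrasts, eBayes, two-sided) with 3 group means, 6 residual and 3.405 prior degrees of freedom. The number of arrays limits precision, and the median SE of a difference was 0.162. The fit was tested on simulated data with independent arrays. That simulation held no offset of the arrays numbered 3 and no shared deviations of same-numbered arrays, so it does not show how the calls behave under those. Tables and figures used Python 3.11.15, pandas 2.3.3, numpy 2.4.6 and matplotlib 3.10.9.

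Same-numbered arrays were checked for pairing by the correlation of their deviations from group means. Deleted receptor and empty vector gave 0.474 to 0.664, and the receptor groups 0.270 to 0.498, all over 0.1, so these were described as pairs in the values by array number. The main fit and its calls used no pairing, and the replicate block was an alternative fit. Between the full-length receptor and empty vector 1 of 3 was -0.166, so those were not described as pairs. That value does not show that they are unpaired, since the arrays numbered 3 stood apart in every group. The pairing comes from the data, as the labels do not say what a number marks.

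Members, lists and tests were chosen with earlier results of these data known. Named genes were the members, for each partner list the called genes and the 3 with the smallest p for the full-length receptor, and the genes most like each member. Ptk2, Rock2, Plin1 and Cfd had no probe set of their own symbol. Vim, Col1a1, Pecam1 and Cdh5 were named for their marker lists as well-known genes of those cells. Egfl7, Esam and Synpo were named for their signal within their lists. Alternatives were the replicate block, median subtraction, quantile normalization, a filter at 7.072, 1 value per gene, trend and robust settings, all probe sets, the 6 compared arrays, no arrays numbered 3, each array left out, and Spearman correlation.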

Additional observations from a re-analysis of the deposited data

How the results depend on the processing

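For the full-length receptor against empty vector the count of called probe sets was 184 and became 931 with the replicate block (these arrays were not treated as pairs), 119 with the brightest probe set per gene, 105 with the mean of probe sets per gene, 93 with the 6 compared arrays, 294 without the 3 arrays numbered 3 and 60 to 170 with 1 array left out. For the deleted receptor against empty vector it was 40 and became 195 with the replicate block, 25 with the mean of probe sets, 106 without the arrays numbered 3 and 18 to 51 with 1 array left out. Between the receptors it stayed at 0 in every alternative run. The 5 probe sets of Kank1, Kank2 and Kank4 had 0 calls in every comparison of each alternative run that kept them, and so had the 8 Kank probe sets between the receptors. The filter on low values and the runs with 1 value per gene did not keep all of these probe sets. For the full-length receptor against empty vector, the replicate block gave calls to Zyx (adjusted p = 0.0076, limma), Tns1 (0.0385) and Kif21a (0.0482), which had none. It changed no call of a Kank probe set. At Kank3 1448839_at the difference between the receptors ranged from -0.97 to -0.24 with 1 array left out. The mean of its probe sets gave 2.15 and 1.72 against empty vector.

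Signs turned for differences that were never called, and the cause was not tested. Without the arrays numbered 3, Kank1 1444711_at was at -0.19 and Kank4 at -0.35 for the full-length receptor against empty vector, and between the receptors Kank1 1444711_at was at 0.020, Kank2 1460559_at at -0.095 and Kank4 at 0.15. The mean of the Kank1 probe sets was -0.038 for the full-length receptor against empty vector. Between the receptors Kank2 1425991_a_at was 0.032 after median subtraction and 0.016 after quantile normalization. With 1 array left out, the full-length differences from empty vector ran from -0.33 to 0.13 for Kank1 1433742_at, -0.12 to 0.19 for Kank1 1444711_at and -0.18 to 0.31 for Kank4. The deleted-receptor differences ran from -0.19 to 0.12 for Kank1 1444711_at and -0.23 to 0.12 for Kank4. Those between the receptors ran from -0.21 to 0.0046 for Kank1 1444711_at, -0.21 to 0.15 for Kank2 1425991_a_at, -0.15 to 0.15 for Kank2 1460559_at and -0.38 to 0.11 for Kank4. With no detection calls, signal over background could not be read.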
